A study of Mus musculus with 8 samples.

Results

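The genes described here are the focal adhesion kinases, the SRC family kinases and a pair of proteins that restrain them: Ptk2 (FAK), Ptk2b (PYK2), Src, Fyn, Yes1, Lyn, Lck, Csk and Ptpn12 (PTP-PEST). They were chosen by name, and every non-control probe that the arrays assign to them was taken. That gave 12 probes for 9 genes, of 39429 probes in all, and 7 of the 9 genes had 1 probe each. All 12 probes were well above background on all 8 arrays.

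The tumours were spontaneous ovarian tumours of female C57BL/6J mice with the TgMISIIR-TAg transgene, in which a promoter of the AMH type II receptor gene drives SV40 T antigen in cells of the reproductive tract. One group was Nedd9-WT (n = 4) and the other Nedd9-null (n = 4). The labels give 4 mice for each genotype, no drug treatment and no age. All tumours of both groups carried the transgene, and no group was without it.

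FAK is a cytoplasmic tyrosine kinase that is recruited to clustered integrins, where it phosphorylates itself and thereby creates a docking site for SRC. The FAK and SRC pair then phosphorylates scaffold proteins of the CAS family, to which NEDD9 belongs, and this recruits adaptors that control adhesion and cell migration. CSK holds SRC family kinases in a closed state by phosphorylating their tails, and PTP-PEST removes phosphate from CAS proteins. SRC, FYN and YES1 are made in most tissues, whereas LYN and LCK are known mainly from myeloid and B cells and from T cells. An RNA array reads none of these phosphorylations.

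Signals are given on a log2 scale relative to the 75th percentile of the same array, so that 0 is the level of a bright probe. The level of 1 probe cannot be compared with that of another, since probes differ in how well they bind. Between 73.0% and 84.6% of probes were well above background per array. Per the file headers, all Nedd9-null arrays were on slide 1 and in scan 1 and all Nedd9-WT arrays on slide 2 and in scan 2, so genotype, slide and scan cannot be told apart in any comparison here. Nedd9-null replicate 1 stood apart: it correlated at 0.886 to 0.920 with the other Nedd9-null arrays and at 0.938 to 0.973 with the Nedd9-WT arrays, across genes. The differences of the 9 genes, of Nedd9 and of the pathway genes described one by one are therefore given with and without it.

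Nedd9, the targeted gene, read -2.01, -3.50, -3.39 and -4.03 in Nedd9-null replicates 1 to 4. It read 1.15, 0.84, 1.30 and 1.85 in Nedd9-WT replicates 1 to 4. The groups did not overlap, and Nedd9 was 22.9-fold lower in the Nedd9-null tumours (log2 difference -4.51, SE 0.44, limma adjusted p = 0.0281). Without Nedd9-null replicate 1 the difference was -4.92 (adjusted p = 0.000296). The labels do not say which part of the gene was removed, so whether this probe lies in it is open. The call did not hold when any of 6 single arrays was left out. The adjusted p was then 0.123, 0.117 and 0.120 without Nedd9-null replicates 2, 3 and 4, and 0.121, 0.118 and 0.0876 without Nedd9-WT replicates 2, 3 and 4.

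Marker lists of cell types that a tumour of this kind can hold were read in each tumour, and 0 of their genes passed the adjusted threshold in limma's test with all 8 tumours. At an unadjusted p under 0.05, 8 of 8 ciliated, 6 of 8 granulosa and steroidogenic, 2 of 8 epithelial, 4 of 8 endothelial and 0 of 6 fibroblast markers passed, where 23.9% of all genes did. A score was taken for each marker list by averaging, over its genes, the log2 difference from the mean of the Nedd9-WT tumours. The score of 8 markers of ciliated oviduct cells was 1.76 in Nedd9-null replicate 1 and 5.85 to 6.52 in the other 3 Nedd9-null tumours, against -0.78 to 1.94 in Nedd9-WT tumours. The score of 8 granulosa and steroidogenic markers was -0.36 in Nedd9-null replicate 1 and -4.76 to -2.77 in the other Nedd9-null tumours, against -0.19 to 0.23 in Nedd9-WT tumours. The score of 8 epithelial markers was -1.11 in Nedd9-null replicate 1 and 1.28 to 2.25 in the rest of that group, against -0.63 to 0.49. Endothelial scores were -0.71 to -0.61 in Nedd9-null and -0.53 to 0.65 in Nedd9-WT tumours, and fibroblast scores were -0.99 to -0.12 and -0.76 to 1.51. Of the ciliated markers 6 of 8, and of the granulosa and steroidogenic markers 5 of 8, were above background on all arrays. The rest had been kept through the genotype in which they were brighter. The scores of these 2 lists and their counts of passing markers are therefore descriptions, and the counts carry no weight against the 23.9% of all genes. The part of these markers in the results below was not tested.

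Over all 9 genes, 0 passed an adjusted p of 0.05 in limma's test with all 8 tumours, where 0.0666% of 25536 genes passed. Of their 12 probes 0 passed too, where 0.0535% of all probes did. At an unadjusted p under 0.05, 4 of 9 passed (Ptk2, Yes1, Lck and Lyn), against 23.9% of all genes. Of the 9 log2 differences (Nedd9-null minus Nedd9-WT), 3 were above 0 and 6 below, with a median of -0.25 beside 0.03 for all genes tested. Without Nedd9-null replicate 1, 3 of 9 genes passed the adjusted threshold, where 18.7% of all genes did, and 4 of 12 probes, where 19.4% of all probes did. Lck and Lyn were then higher, as 10.3% of all genes were, and Ptk2 was lower, as 8.36% were. Leaving out that array thus moved the share of calls over all genes as well, and the members' counts have to be read against it. The genotypes did not overlap for 1 of the 9, Ptk2, where 12.7% of all genes did not overlap in either direction. In a bulk tumour, fewer cells of a type and less RNA per cell cannot be told apart.

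**Figure D1:**
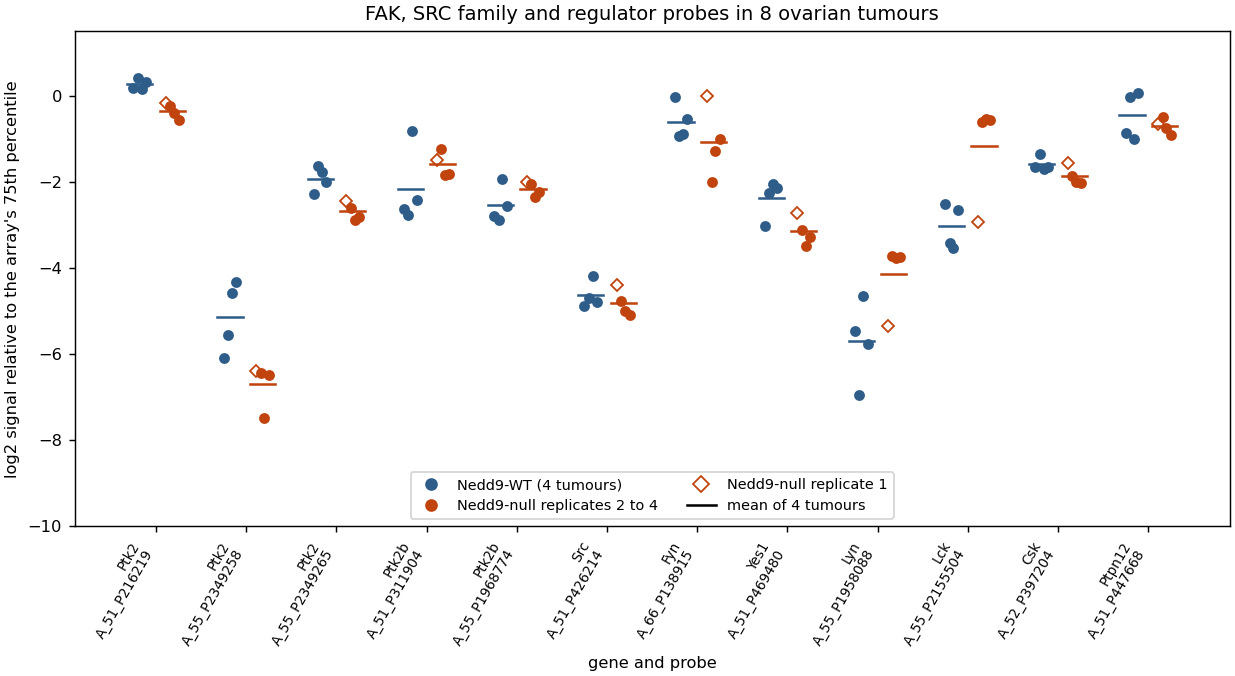
Log2 signal relative to each array's 75th percentile (vertical axis) for the 12 probes of the 9 genes (horizontal axis), with a point per tumour and a line at the mean of each group of 4. Blue points are Nedd9-WT, filled orange points Nedd9-null replicates 2 to 4 and open diamonds Nedd9-null replicate 1. All 3 Ptk2 probes are lower in every Nedd9-null tumour, and the open diamond lies with the Nedd9-WT points for Lck and Lyn.

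Ptk2, the gene of FAK, was lower in every Nedd9-null tumour by each of its 3 probes. The probe with the brightest signal (A_51_P216219, mm9 chr15:73035632-73035691, minus strand) read -0.17, -0.23, -0.40 and -0.55 in Nedd9-null replicates 1 to 4 and 0.18, 0.41, 0.16 and 0.32 in Nedd9-WT replicates 1 to 4. The groups did not overlap, and the level was 1.53-fold lower in Nedd9-null tumours (log2 difference -0.61, SE 0.15, 95% interval -0.97 to -0.26, limma adjusted p = 0.0957). With that array left out the difference was -0.67 and passed (adjusted p = 0.0264).

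The other Ptk2 probes lie upstream of it, nearer to the start of the gene, and the outermost are 116 kb apart. Probe A_55_P2349265 (chr15:73151206-73151265, minus strand) read -2.44, -2.60, -2.89 and -2.80 in Nedd9-null replicates 1 to 4 and -2.29, -1.64, -1.77 and -1.99 in Nedd9-WT replicates 1 to 4. These groups did not overlap either (log2 difference -0.76, SE 0.20, limma adjusted p over probes = 0.0937), and without Nedd9-null replicate 1 the difference was -0.84 (adjusted p = 0.0273). Probe A_55_P2349258 (chr15:73046031-73046090), much nearer to background, read -6.38, -6.43, -7.49 and -6.49 against -6.09, -5.55, -4.59 and -4.33. It too had no overlap (log2 difference -1.56, SE 0.44, adjusted p = 0.105, and 0.0567 without Nedd9-null replicate 1). So 3 of the 12 probes were lower without overlap, all of Ptk2, where 5.65% of all probes were. The probes share the gene and the tumours and are not independent. With the mean of the kept probes in place of the brightest one, the Ptk2 difference was -0.98 (limma adjusted p = 0.0845). The letters of the probe farthest from the others are shown because 3 separate stretches of the gene gave the same direction.
Ptk2 A_55_P2349265: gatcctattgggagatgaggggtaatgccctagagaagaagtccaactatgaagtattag

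Ptk2b encodes PYK2, the relative of FAK that is activated by calcium and is abundant in blood cells. Its probe A_51_P311904 (chr14:66772409-66772468) read -1.49, -1.24, -1.84 and -1.80 in Nedd9-null replicates 1 to 4 and -2.62, -2.76, -0.81 and -2.42 in Nedd9-WT replicates 1 to 4. The highest of all 8 tumours was Nedd9-WT replicate 3, so the groups overlapped (log2 difference 0.56, SE 0.43, 95% interval -0.44 to 1.56, limma adjusted p = 0.473). The difference was 0.53 without Nedd9-null replicate 1 (adjusted p = 0.518) and 1.01 without Nedd9-WT replicate 3 (adjusted p = 0.153). The other probe, A_55_P1968774 (chr14:66772756-66772815), read -2.00, -2.05, -2.34 and -2.23 against -2.79, -2.88, -1.94 and -2.55, with the same tumour highest (log2 difference 0.38, and 0.33 without Nedd9-null replicate 1). The score of 10 myeloid markers was -0.70, 1.20, 0.42 and 0.25 in Nedd9-null replicates 1 to 4. It was 0.18, -0.98, 1.18 and -0.38 in Nedd9-WT replicates 1 to 4. The part of myeloid cells in the Ptk2b values was not tested.

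Src, the prototype of the family, read -4.39, -4.76, -4.99 and -5.09 in Nedd9-null replicates 1 to 4 and -4.87, -4.69, -4.18 and -4.79 in Nedd9-WT replicates 1 to 4. The groups overlapped and no difference was called (-0.17, SE 0.23, 95% interval -0.70 to 0.36, limma adjusted p = 0.689). It was -0.31 without Nedd9-null replicate 1 (adjusted p = 0.362). The 60 letters of its probe come from a stretch of 932 bases (chr2:157293336-157294267, plus strand), so the probe reads spliced RNA.
Src A_51_P426214: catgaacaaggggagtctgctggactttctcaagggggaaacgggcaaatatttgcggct

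Fyn, a kinase of neurons and T cells as well as of adherent cells, varied most within the Nedd9-null group among these widely made kinases. Its probe (A_66_P138915, chr10:39284572-39284631) read -0.01, -1.99, -1.29 and -1.00 in Nedd9-null replicates 1 to 4 and -0.04, -0.93, -0.89 and -0.53 in Nedd9-WT replicates 1 to 4. Replicate 1 was the highest of each group. The difference was -0.47 (SE 0.42, 95% interval -1.45 to 0.50, limma adjusted p = 0.536), and -0.83 without Nedd9-null replicate 1 (adjusted p = 0.123).

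Yes1, whose product overlaps with SRC and FYN in function, read -2.71, -3.11, -3.49 and -3.29 in Nedd9-null replicates 1 to 4. It read -3.03, -2.26, -2.06 and -2.15 in Nedd9-WT replicates 1 to 4 (A_51_P469480, chr5:32988496-32988555). Nedd9-WT replicate 1 lay among the Nedd9-null values and the other 3 Nedd9-WT tumours lay above them all. The difference was -0.78 (SE 0.27, 95% interval -1.40 to -0.15, limma adjusted p = 0.146), and -0.92 without Nedd9-null replicate 1 (adjusted p = 0.0548).

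Lyn, a kinase that passes on B cell and Fc receptor signals and also damps them, read -5.34, -3.72, -3.75 and -3.74 in Nedd9-null replicates 1 to 4. It read -5.47, -6.94, -4.65 and -5.76 in Nedd9-WT replicates 1 to 4 (A_55_P1958088, chr4:3718682-3718741). Nedd9-null replicates 2 to 4 lay above every Nedd9-WT tumour, and replicate 1 lay among the Nedd9-WT values. In array signal that was 59.5 in Nedd9-null replicate 1 and 240 to 266 in replicates 2 to 4, against 26.0 to 116 in Nedd9-WT tumours. The difference over all 8 tumours was 1.56, or 2.95-fold (SE 0.56, 95% interval 0.27 to 2.85, limma adjusted p = 0.151). With that array left out it was 1.96, or 3.90-fold, and passed (adjusted p = 0.0331). The difference was 0.93 with normexp background correction and 0.90 in the deposited value table. The myeloid score was -0.70 in Nedd9-null replicate 1 and 0.25 to 1.20 in replicates 2 to 4, against -0.98 to 1.18 in Nedd9-WT tumours; 7 of its 10 markers were above 0 in difference and 0 passed. The score of 6 B cell markers was -0.38 to 0.70 in Nedd9-null and -0.68 to 0.51 in Nedd9-WT tumours, with 3 markers above 0 and 3 below. Of these 6 markers 4 were above background on all arrays, so the B cell score is a description. The part of these cells in the Lyn values was not tested.

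Lck, which starts signalling from the T cell receptor, had the largest difference of the 9 genes. Its probe (A_55_P2155504, chr4:129225614-129225673) read -2.93, -0.61, -0.55 and -0.57 in Nedd9-null replicates 1 to 4 and -2.51, -3.43, -3.53 and -2.66 in Nedd9-WT replicates 1 to 4. Nedd9-null replicates 2 to 4 lay close together above all Nedd9-WT tumours, and replicate 1 lay among the Nedd9-WT values. The signal was 318 in Nedd9-null replicate 1 and 2219 to 2392 in replicates 2 to 4, against 254 to 503 in Nedd9-WT tumours. Over all 8 tumours the difference was 1.87, or 3.65-fold (SE 0.58, 95% interval 0.54 to 3.20, limma adjusted p = 0.121). With it left out the difference was 2.45, or 5.48-fold, and passed (adjusted p = 0.00189).

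The 10 T cell markers were measured beside Lck. Their score was 0.45, 0.82, 0.98 and 0.42 in Nedd9-null replicates 1 to 4 and 0.35, -0.27, -0.34 and 0.26 in Nedd9-WT replicates 1 to 4. Of the 10 markers 7 were above background on all arrays, and the filter could keep a marker through the genotype in which it was brighter. This score and the counts of its markers are therefore descriptions too. Beside these scores Lck read -2.93, -0.61, -0.55 and -0.57 in Nedd9-null replicates 1 to 4 and -2.51, -3.43, -3.53 and -2.66 in Nedd9-WT replicates 1 to 4. Of the 10 markers, 9 were above 0 in difference and 0 passed in limma's test with all tumours. At an unadjusted p under 0.05, 2 of 10 passed, where 23.9% of all genes did. Without Nedd9-null replicate 1, 1 of 10 was higher past the adjusted threshold, where 10.3% of all genes were. Cd3e, a chain of the T cell receptor complex, differed by 0.17 (adjusted p = 0.483). The part of T cells in the Lck values was not tested.

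**Figure D2:**
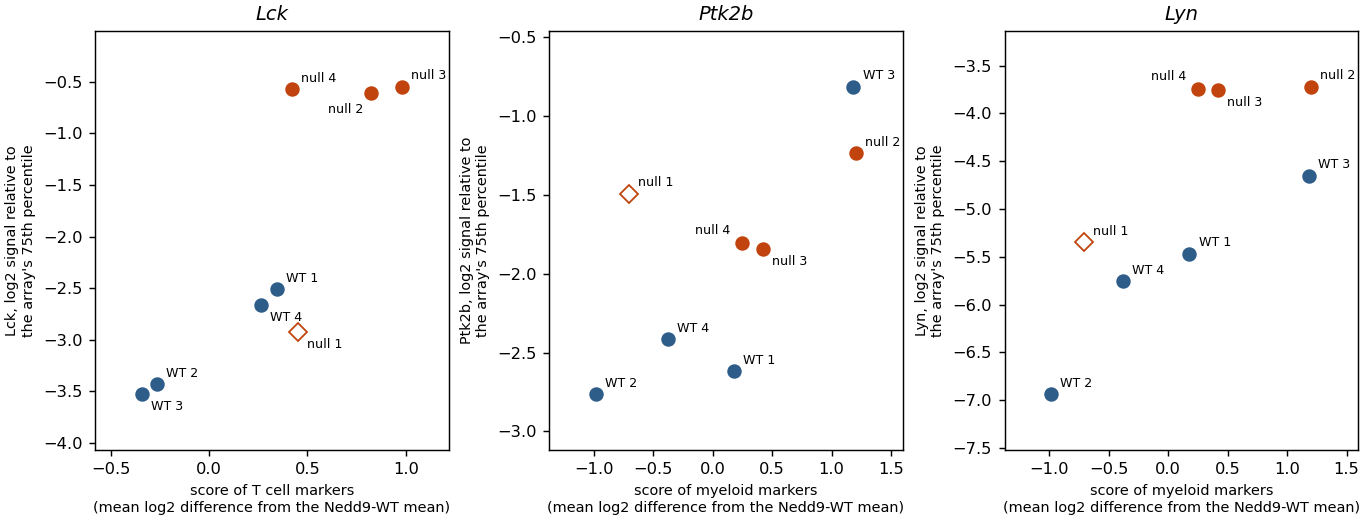
Log2 signal relative to the array's 75th percentile of Lck, Ptk2b and Lyn (vertical axes) against the score of T cell markers (Lck) or myeloid markers (Ptk2b and Lyn), the average log2 difference from the mean of the Nedd9-WT tumours (horizontal axes), with a point per tumour. At T cell scores of 0.42 and 0.45, Lck read -0.57 in Nedd9-null replicate 4 and -2.93 in Nedd9-null replicate 1 (open diamond). Of the 10 T cell markers 7 were above background on all arrays.

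Lck is known to be read from separate start sites, and the RefSeq promoter table (GRCm38.p6) holds a pair for it. The 250 bases before each start are shown because Lck had the largest difference of the 9 genes in the fit of all 8 tumours; without Nedd9-WT replicate 3 it was 1.70 and that of Lyn 1.91. Capitals mark CAGGAAG, a 7-letter word with the GGAA core that ETS factors bind, searched on both strands (CTTCCTG on the other) with no other motif. The letters were picked after the Lck stretches had been read, so their presence in Lck is a description and carries no weight. The word occurs in the same window of 10.8% of 32851 promoters in the table, and in 2 of the 7 promoters listed for Src, Lck, Yes1, Csk and Fyn, both of them of Lck.
Lck chr4:129573642-129573891, minus strand: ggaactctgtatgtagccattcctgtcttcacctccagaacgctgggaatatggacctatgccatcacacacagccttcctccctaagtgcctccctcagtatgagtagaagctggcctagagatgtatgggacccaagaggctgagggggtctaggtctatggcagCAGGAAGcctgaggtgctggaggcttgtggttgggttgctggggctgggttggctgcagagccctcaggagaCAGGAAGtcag
Lck chr4:129558373-129558622, minus strand: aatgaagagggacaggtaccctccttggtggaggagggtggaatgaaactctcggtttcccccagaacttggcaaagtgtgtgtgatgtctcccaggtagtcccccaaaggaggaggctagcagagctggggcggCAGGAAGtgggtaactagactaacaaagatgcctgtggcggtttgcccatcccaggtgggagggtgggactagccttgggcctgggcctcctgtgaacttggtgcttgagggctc

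Csk, the kinase that restrains the SRC family, read -1.55, -1.85, -2.00 and -2.03 in Nedd9-null replicates 1 to 4 and -1.65, -1.34, -1.71 and -1.66 in Nedd9-WT replicates 1 to 4 (A_52_P397204, chr9:57474734-57474793). The groups overlapped through Nedd9-null replicate 1 (log2 difference -0.27, SE 0.17, 95% interval -0.66 to 0.13, limma adjusted p = 0.385, and -0.37 with 0.156 without that array). Ptpn12 read -0.65, -0.50, -0.75 and -0.91 against -0.85, -0.04, -1.00 and 0.07. Its Nedd9-WT values fell into a pair above all Nedd9-null values and a pair near the lowest of them (log2 difference -0.25, SE 0.28, 95% interval -0.90 to 0.41, limma adjusted p = 0.637, and -0.26 with 0.627 without Nedd9-null replicate 1). The Ptpn12 probe takes its letters from a stretch of 1572 bases (chr5:20493284-20494855, minus strand), so it reads spliced RNA as well.
Ptpn12 A_51_P447668: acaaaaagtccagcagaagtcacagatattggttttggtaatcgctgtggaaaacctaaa

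**Figure D3:**
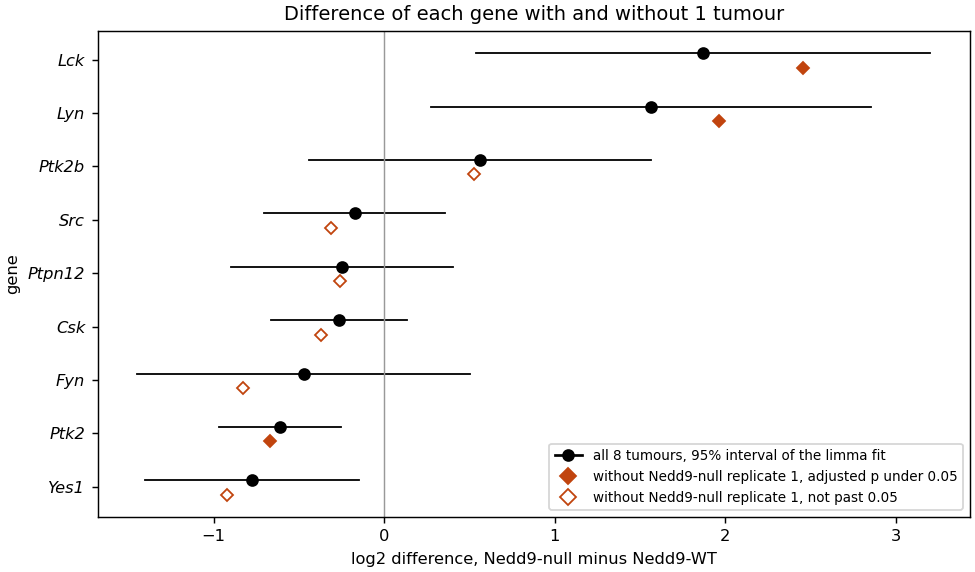
Log2 difference (Nedd9-null minus Nedd9-WT, horizontal axis) of the 9 genes (vertical axis) over all 8 tumours (black circles, with the 95% interval of the limma fit) and without Nedd9-null replicate 1 (diamonds, filled where the adjusted p was under 0.05). Lck at 1.87 and Lyn at 1.56 are the highest, Yes1 at -0.78 and Ptk2 at -0.61 the lowest.

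Likeness of pattern was measured as the mean absolute difference, over the 8 arrays, of log2 values centred on each gene's mean, among 15129 named genes above background on all arrays. The nearest genes to Ptk2 were Mak16 (0.069), Saraf (0.071) and Aga (0.073). Those nearest to Lck were Apc2 (0.18), Ralgds (0.20) and Tsga10 (0.20), and those nearest to Lyn were Ap1m2 (0.15), Phkg1 (0.23) and Hlcs (0.24). Nearest to Yes1 were Ninl, Nkpd1 and Ocrl (0.082 to 0.10), and to Csk Pds5a, Riox1 and Zfp87 (0.032 to 0.043). Nearest to Src were Cst3, Pak1ip1 and Vps41 (0.061 to 0.084), and to Ptpn12 Pitpnm2, Vwa5a and Bahd1 (all 0.13). Nearest to Ptk2b were Selenok, Appl1 and Ly9 (0.17 to 0.21), and to Fyn Anapc10, Gab1 and Pde6c (0.20 to 0.22). A flat gene has many near neighbours, so these distances cannot be ranked between genes.

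The other SRC-type kinases were measured for 5 of 6 listed genes, since Ptk6 stayed below the background limit on all arrays. All 5 differences were above 0, with a median of 0.57 beside 0.03 for all genes. In limma's test 0 passed the adjusted threshold and 2 (Blk and Srms) passed unadjusted, where 23.9% of all genes did. The filter had kept Blk through the Nedd9-null arrays alone, so the counts and the median that include it are descriptions. Without Nedd9-null replicate 1, 1 of 5 passed, near the 18.7% of all genes: Frk, a kinase of epithelial cells, which read -3.17, -1.06, -1.36 and -1.36 in Nedd9-null replicates 1 to 4 and -2.24, -3.16, -3.76 and -2.46 in Nedd9-WT replicates 1 to 4. As with Lck and Lyn, Nedd9-null replicate 1 lay among the Nedd9-WT values (log2 difference 1.17, adjusted p = 0.231, and 1.65 with adjusted p = 0.0242 without it). Srms, whose difference is the median, was at 0.57 (adjusted p = 0.193), 0.39 without Nedd9-null replicate 1, 0.11 with normexp background correction and 0.16 in the deposited value table. Blk, a B cell kinase, was at 0.74 (adjusted p = 0.157), 0.75 without that array, 0.15 with normexp and 0.13 in the deposited table, and was above background on 3 Nedd9-null arrays and 1 Nedd9-WT array.

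Of 13 regulators of FAK and SRC kinases, 6 differences were above 0 and 7 below, with a median of -0.17. In limma's test 0 passed with all 8 tumours and 4 of 13 passed unadjusted, where 23.9% of all genes did. Without Nedd9-null replicate 1, 3 of 13 were higher (Matk, Ptpn22, Ptpn6), beside 10.3% of all genes, and 2 lower (Ptpre, Ptpn1), beside 8.36%. Matk, a relative of CSK, read -1.93, -1.31, -1.03 and -0.48 against -2.14, -2.04, -1.98 and -1.93. Nedd9-null replicate 1 and Nedd9-WT replicate 4 were level, so its groups counted as not overlapping by less than the digits printed. Of all genes 7.16% were higher without overlap. The log2 difference of Matk was 0.84 (SE 0.29, limma adjusted p = 0.147), and 1.08 without Nedd9-null replicate 1 (adjusted p = 0.0155). Ptpn22, a phosphatase of lymphocytes that acts on LCK, read -6.60, -1.65, 0.18 and -0.20 against -5.61, -6.05, -6.76 and -5.80. Nedd9-null replicate 1 lay far below the rest of its group, among the Nedd9-WT values (difference 3.99, SE 1.39, adjusted p = 0.145, and 5.50 with 0.000648 without it). Ptpre, a phosphatase that acts on SRC kinases, read -0.96, -2.46, -3.37 and -3.38 against -0.48, -0.85, -0.21 and -1.04. The difference was -1.90 (SE 0.54, limma adjusted p = 0.108), and -2.43 without Nedd9-null replicate 1 (adjusted p = 0.00251).

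Of 25 substrates and partners, 8 differences were above 0 and 17 below, with a median of -0.14. With all tumours 0 passed in limma's test and 8 of 25 passed unadjusted, where 23.9% of all genes did. The genotypes did not overlap for 5, all lower in Nedd9-null tumours (Bcar1, Tns1, Asap1, Eps8 and Wasl), where 5.58% of all genes were lower without overlap. For Eps8 the lowest value was that of Nedd9-null replicate 1 (-2.46). Its difference was -1.64, and -1.06 without that array (limma adjusted p = 0.255). Without Nedd9-null replicate 1, 3 of 25 were higher (Grb7, Afap1, Pstpip1), near the 10.3% of all genes, and 6 lower (Bcar1, Tns1, Arhgap26, Asap1, Ctnnd1, Wasl), beside 8.36%.

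Tns1, which ties integrins to actin, read 2.34, 2.05, 2.30 and 1.76 against 3.36, 2.89, 2.83 and 3.27 (log2 difference -0.98, SE 0.21, limma adjusted p = 0.0829, and -1.05 with 0.0160 without Nedd9-null replicate 1). Wasl, an activator of actin branching, read 0.92, 0.54, 0.35 and 0.34 against 1.18, 1.13, 1.85 and 1.37 (difference -0.84, SE 0.22, adjusted p = 0.101, and -0.97 with 0.0213 without that array). Asap1, an ARF regulator bound by SRC and FAK, differed by -0.79 (SE 0.21, adjusted p = 0.103, and -0.90 with 0.0279 without it). A further pair was chosen after its values were seen. Bcar1, the founding CAS scaffold and a direct relative of Nedd9, read 2.52, 1.17, 0.93 and 0.70 against 2.57, 2.56, 3.03 and 2.72. It was lower without overlap, with Nedd9-null replicate 1 close to the Nedd9-WT tumours (difference -1.39, SE 0.39, adjusted p = 0.108, and -1.79 with 0.00138 without it). Grb7, an adaptor that binds FAK, read -5.54, 1.01, 0.87 and 0.69 against -5.45, -5.26, -6.32 and -5.67 (difference 4.93, SE 1.42, adjusted p = 0.110, and 6.53 with 0.000239 without replicate 1).

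**Figure D4:**
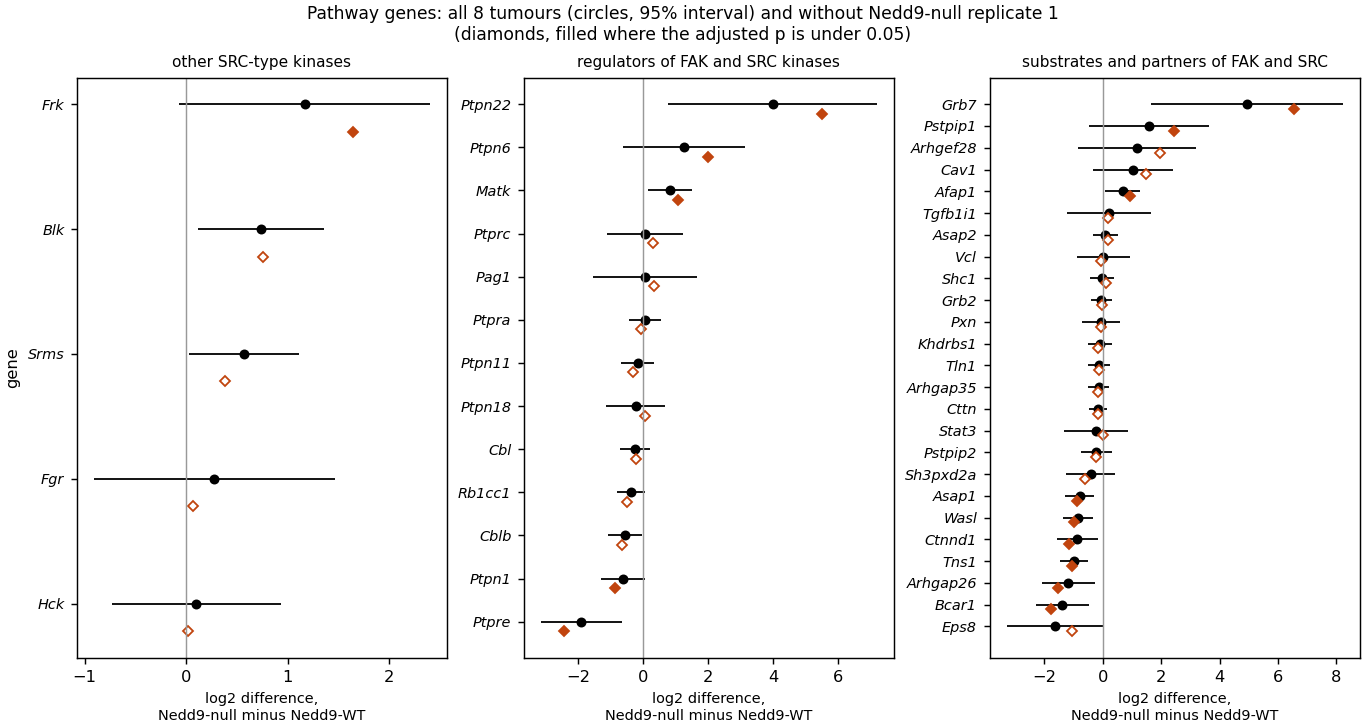
Log2 difference (Nedd9-null minus Nedd9-WT, horizontal axes) of the measured genes of 3 lists (vertical axes) over all 8 tumours (circles, with the 95% interval) and without Nedd9-null replicate 1 (diamonds, filled where the limma adjusted p was under 0.05). Grb7 at 4.93 and Ptpn22 at 3.99 have the widest intervals, and Ptpre at -1.90 is the lowest.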

How the data were processed

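RNA of 8 tumours was hybridised to 1-colour Agilent mouse arrays, 500 ng per array per the labels. The deposited intensity values were made with Agilent Feature Extraction 9.5.3, per the submitters' processing notes, and carry mm9 coordinates, per the file headers. The deposited value table holds log2 values; the authors' scaling steps for it are not given in the sources used here, and it served as an alternative. The labels differ on whether tumour volume was under or had reached 2000 mm3.

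Of 44397 spots, 1377 controls and 194 to 292 outlier spots per array were left out, and spots of a probe were averaged. The processed signal was divided by the array's 75th percentile (2418 to 3552 in signal) and put on a log2 scale. A probe was kept if 3 or more of the 4 arrays of a genotype had it well above background (31784 probes), and the brightest represented each of 25536 genes. Names were updated through RefSeq (GRCm38.p6). The comparison used limma 3.58.1 (R 4.3.3), with Benjamini-Hochberg adjustment over all genes, or over all probes for probe values, at 0.05. The script was tested on simulated data.

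The genes, lists and tests were chosen with earlier results of these data known. Named were all 9 genes, Nedd9, per list up to 3 genes with the smallest p, and the 3 nearest genes by pattern. The number of arrays limits the precision. Other scalings, filters and single arrays left out were tried as alternatives. The values of 1 marker gene are not reported here.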

Additional observations from a re-analysis of the deposited data

Results flagged for a closer look

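In 8 of the 64 groups of 4 tumours examined, 1 tumour lay far from the other 3 (by Dixon's 95% limit, which chance passes in about 1 in 20 groups), and 5 of these were Nedd9-null replicate 1. That tumour read -5.34 for Lyn, where the other Nedd9-null tumours read -3.75 to -3.72, and -2.93 for Lck, where they read -0.61 to -0.55. It read -3.17 for Frk against -1.36 to -1.06, and -5.54 for Grb7 against 0.69 to 1.01. Its ciliated oviduct score was 1.76 against 5.85 to 6.52. The ciliated score of Nedd9-WT replicate 1 was 1.94, where the other Nedd9-WT tumours were at -0.78 to -0.49. Nedd9-null replicate 3 read -7.49 on the Ptk2 probe A_55_P2349258, against -6.49 to -6.38 in its group. Nedd9-WT replicate 2 read -1.34 for Csk, against -1.71 to -1.65.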

How the results depend on the processing

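Of 153 values of the 9 genes under 17 alternatives, 153 kept their direction, but their sizes moved. Lyn went from 0.90 (deposited value table) to 2.09 (array weights). Ptk2 went from -0.98 (mean of the kept probes) to -0.54 (without Nedd9-null replicate 4). The small differences moved by over 1.5 times as well. Ptk2b went from 0.36 (without Nedd9-WT replicate 2) to 1.01 (without Nedd9-WT replicate 3). Src went from -0.40 (quantile normalization) to -0.02 (without Nedd9-WT replicate 3). Fyn went from -0.84 (array weights) to -0.17 (without Nedd9-null replicate 2). Csk went from -0.46 (median as the scale) to -0.18 (without Nedd9-WT replicate 2). Ptpn12 went from -0.44 (median as the scale) to -0.07 (without Nedd9-WT replicate 4). Ptk2b, Src, Fyn, Csk and Ptpn12 passed under none of the 17 alternatives, and Lyn and Ptk2 passed under 2 each. The count of genes past the threshold, 17 in the reported fit, was 4 with the median as the scale, 4 with quantile normalization, 7 with probes above background on all 8 arrays and 5984 with array weights. With array weights 4 of the 9 genes (Lck, Lyn, Ptk2, Yes1) passed, where 5984 of all 25536 genes did. So did 17 pathway genes, out of the 5, 13 and 25 measured in the 3 lists, and 6 of the 12 probes. The share over all probes was not taken under that setting, so its probe count has nothing to be read against. Leaving out 1 array at a time gave 0 to 4771 genes and 0 to 3 of the 9 genes. It gave 0 to 4 of their probes, 0 to 15 pathway genes and a Nedd9 difference of -4.92 to -4.25. Each highest count was without Nedd9-null replicate 1, where 18.7% of all genes and 19.4% of all probes passed. The median of all genes was -0.16 with the median as the scale, against 0.03. With the replicate number as a block, 0 genes passed and Nedd9 was at -4.51 (limma adjusted p = 0.217). The labels name no pairing of same-numbered tumours. Their deviations correlated at -0.05, -0.23, -0.04 and -0.09, and no Nedd9-null tumour correlated best with the Nedd9-WT tumour of its number. Whether same-numbered tumours share anything else is not known. The cause of these changes was not tested.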

Other observations

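The genes next to the 9 genes on the chromosome, in the gene order of RefSeq GRCm38.p6, were read for their values alone, and those named here were chosen after the values were seen. Beside Lck, Hdac1 differed by 0.09 (limma adjusted p = 0.784) and Fam167b by -0.91, lower in every Nedd9-null tumour (adjusted p = 0.126). Beside Ptpn12, Gsap read -4.12, -0.76, -1.06 and -0.91 in Nedd9-null replicates 1 to 4 and -3.72, -3.35, -4.05 and -3.47 in Nedd9-WT replicates 1 to 4. Nedd9-null replicate 1 lay just below the Nedd9-WT values and the other 3 Nedd9-null tumours above them (difference 1.94, adjusted p = 0.165, and 2.74 with 0.000424 without it). Beside Lyn, Tgs1 differed by -0.08 and Rps20 by 0.32, neither past the threshold.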
